A study of Rattus norvegicus with 60 samples.

Results

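The transforming growth factor beta (TGF-beta) ligands, a receptor, an inhibitor and a target of the pathway, together with 2 platelet-derived growth factors (PDGF) and the activin subunit Inhba, were followed in rat lung after inhalation of crystalline silica. The 9 genes were Tgfb1, Tgfb2, Tgfb3, Inhba, Pdgfa, Pdgfb, Tgfbr2, Smad7 and Ccn2, out of 21792 gene lines on the array. They were picked by gene name. Symbols in the table found 8 of them (Ccn2 under its older name Ctgf), and Smad7 was found through its gene identifier, since the table lists it as Madh7. Where a gene had several lines the brightest was used.

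The animals were male CDF Fisher 344 rats of about 3 months. The silica rats breathed 15 mg/m3 silica for 6 hours a day on 5 days, and the control rats breathed filtered air over the same days. Lungs were taken after 1, 2, 4, 8 or 16 weeks, counted from the last exposure, from 8 silica rats and 4 air rats at each time. Each of the 60 rats gave 1 Illumina bead array of total lung RNA.

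TGF-beta is made in a latent complex held by latent TGF-beta binding proteins in the matrix. Once released, it binds the type II receptor, which recruits the type I receptor and so activates SMAD transcription factors. SMAD7 blocks the type I receptor, and is itself induced by the pathway as a brake. In lung, TGF-beta drives fibroblasts to become myofibroblasts and to lay down collagen, CCN2 is a matrix-associated protein induced along with it, and PDGF ligands act on fibroblasts and smooth muscle cells as mitogens.

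The arrays were close to each other, with a lowest median correlation with the others of 0.990, and between 11225 and 12594 genes were detected on each. The lowest counts, 11225 to 11620, were all on silica arrays. They were replicate 6 at 1 week, 4 at 2 weeks, 6 at 4 weeks, 4 at 8 weeks and 3 at 16 weeks. Their raw median signals were 85.5 to 97.8, where those of all arrays began at 60.2. A block for these arrays was not fitted. The signal column of 1 array, replicate 3 of silica at 4 weeks, was displaced by 2 lines in the deposited table and was moved back before use. Lung epithelial markers such as Sftpc were bright on all arrays, with marker means of log2 12.83 to 13.13 in silica rats and 12.82 to 13.13 in air rats. Genes of heart muscle were also present in amounts that differed widely between rats. The mean of the 4 heart muscle markers tested of 6 ran between 5.40 and 9.51 in silica rats at 16 weeks, against 9.78 to 10.73 in air rats. At 4 weeks the same mean ran between 5.10 and 11.65 in silica rats, against 5.17 to 6.15 in air rats. The array reads whole-lung RNA, in which fewer cells of a type and less RNA per cell cannot be told apart.

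Of the 9 genes, 7 were detected on all 60 arrays and were tested. Inhba, the subunit of activin A, had a mean raw signal of 54.9 (45.2 to 77.2 over the arrays) and was detected on 0 of 60 arrays, with a lowest detection p-value of 0.0994. Pdgfb, whose product forms the PDGF-BB dimer, had a mean raw signal of 52.2 (42.9 to 64.8) and was also detected on 0 arrays, with a lowest detection p-value of 0.322. Neither gene passed the detection filter, so no statement about silica can be made for them. All values below are log2 normalized signals of single rats, differences are silica minus air on that scale, and a gene was called where limma's p-value, adjusted over the 13918 genes tested, was under 0.05.

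Over the whole course the TGF-beta pathway genes moved little, and more of them fell than rose. Averaged over the 5 times, Tgfb2, Tgfb3, Pdgfa and Smad7 fell and Tgfbr2 rose, each by less than 0.25 on the log2 scale. Tgfb1 and Ccn2 were not called on this average, though some other settings called Tgfb1 higher or Ccn2 lower. The count is thus 5 of 7 genes called, 1 higher and 4 lower, where 35.2% of all genes tested were called, 14.6% higher and 20.6% lower. At single times the calls were fewer. They were 1 of 7 genes at 1 week (3.82% of all genes), 1 of 7 at 2 weeks (9.35%), 0 of 7 at 4 weeks (6.64%), 1 of 7 at 8 weeks (8.92%) and 2 of 7 at 16 weeks (22.7%). At 4 weeks 1 gene, Pdgfa, had an unadjusted p under 0.05. All 5 single-time calls were of lower signal in silica rats, where 1.14% of all genes were called lower at 1 week, 4.58% at 2 weeks, 4.15% at 8 weeks and 12.2% at 16 weeks. The median difference over the 7 genes ran between -0.15 and -0.06 over the 5 times, beside medians of all genes between -0.02 and -0.01.

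**Figure D1:**
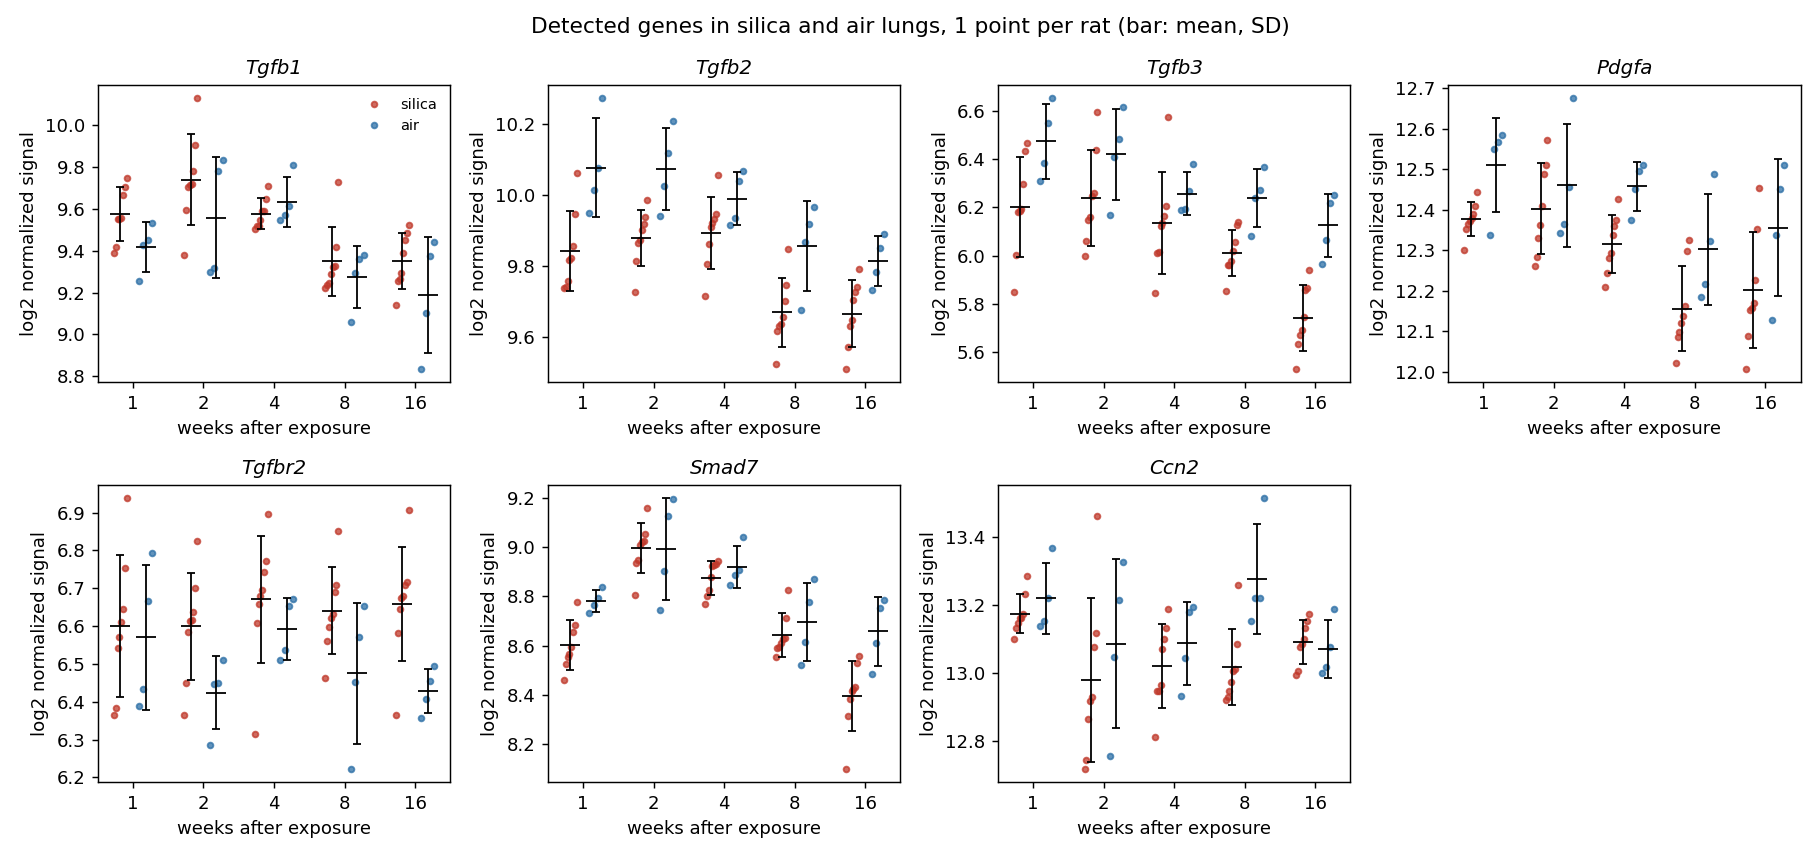
Log2 normalized signal of the 7 detected genes (vertical axis) by weeks after exposure (horizontal axis), 1 point per rat, 8 silica rats (red, left) and 4 air rats (blue, right) at each time, with the group mean and SD as bars. Silica and air points overlap in every panel and at every time but one, Tgfb3 at 16 weeks, where all 8 silica rats lie below all 4 air rats.

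The plot of single rats shows how small most differences were beside the spread. The silica and air rats did not overlap in 1 of the 35 pairs of gene and time, Tgfb3 at 16 weeks. At that time 22.7% of all genes were called. The share of all genes without overlap was not computed, so the count of 1 in 35 has no background beside it. The sign of the difference was nevertheless the same at all 5 times for Tgfb2, Tgfb3, Pdgfa and Tgfbr2. For Tgfb1, Smad7 and Ccn2 it was the other way at 1 time. Of the 40 silica rats, 39 lay below the mean of the air rats of their own time for Tgfb2, 37 for Tgfb3, 35 for Pdgfa, 29 for Smad7 and 27 for Ccn2. For Tgfbr2, 33 of the 40 lay above it, and for Tgfb1, 28. The silica rats of a time share 1 air mean, so the 40 are not independent. Such counts were not made over all genes.

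Tgfb1, the isoform most studied in lung fibrosis, was not called at any time. At 1 week the silica rats had 9.39 at the lowest, 9.56 at the median and 9.75 at the highest, against 9.53, 9.43, 9.45 and 9.25 in the air rats. At 2 weeks they had 9.38, 9.72 and 10.13, against 9.78, 9.83, 9.31 and 9.30 in the air rats. The groups overlapped at both times, and 6 of 8 silica rats at 1 week lay above the highest air rat. The differences were 0.16 ± 0.10 at 1 week (SE, adjusted p = 0.510) and 0.18 ± 0.10 at 2 weeks (adjusted p = 0.297). At 4 weeks the silica rats spread over 9.50, 9.57 and 9.71, against 9.81, 9.57, 9.55 and 9.61 in the air rats, with a difference of -0.06 ± 0.10 (adjusted p = 0.821). At 8 weeks the silica values were 9.22, 9.31 and 9.73, against 9.29, 9.06, 9.38 and 9.36 in air, with a difference of 0.08 ± 0.10 (adjusted p = 0.773). These 2 times were the ones where the groups lay closest. At 16 weeks the silica rats had 9.14, 9.34 and 9.52, against 9.10, 8.84, 9.37 and 9.44 in the air rats, and the difference was 0.16 ± 0.10 (adjusted p = 0.281). The average over the 5 times was 0.10 ± 0.05 (adjusted p = 0.0693), with a 95% interval of 0.01 to 0.20. The group means of Tgfb1 had their highest value in silica at 2 weeks (9.74 ± 0.22, SD) and their lowest in air at 16 weeks (9.19 ± 0.28). In that order of 10 groups, 8 of the 9 neighbouring pairs were closer than the smaller of their SDs.

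Tgfb2, an isoform with the same receptors that needs the co-receptor betaglycan for tight binding, was called lower at 1 and 2 weeks. At 1 week the silica rats had 9.74, 9.82 and 10.06 (lowest, median and highest), against 9.95, 10.08, 10.01 and 10.27 in the air rats. The groups overlapped through the highest silica rat only, since 7 of 8 silica rats lay below the lowest air rat. The difference was -0.23 ± 0.06 (SE, adjusted p = 0.0203), 0.850 of the air level. At 2 weeks the silica rats had 9.73, 9.89 and 9.98, against 10.12, 10.02, 10.21 and 9.94 in the air rats, again with 7 of 8 silica rats below the lowest air rat. The difference was -0.19 ± 0.06 (adjusted p = 0.0409), 0.874 of the air level. Both calls were narrow. Without air replicate 2 or replicate 4 the call at 1 week was lost (difference between -0.28 and -0.17 over all rats left out), and without any 1 of 4 silica rats (replicates 4 to 7) or 2 air rats (replicates 1 and 3) so was that at 2 weeks (-0.24 to -0.15). Both were also lost when arrays were scaled to 1 median in place of quantile normalization, where the adjusted p was 0.396 at 1 week and 0.0702 at 2 weeks.

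Later the difference of Tgfb2 kept its sign without passing the test, narrowly so at 8 weeks. It was -0.10 ± 0.06 at 4 weeks (adjusted p = 0.407), where the silica rats had 9.72, 9.92 and 10.06, against 10.04, 9.91, 9.94 and 10.07 in air. At 8 weeks it was -0.19 ± 0.06 (adjusted p = 0.0521), with 9.52, 9.64 and 9.85 in silica rats, against 9.68, 9.96, 9.92 and 9.87 in air rats. A call at 8 weeks was gained with the authors' values (adjusted p = 0.0365) and without any 1 of 13 rats (-0.25 to -0.15). At 16 weeks the difference was -0.15 ± 0.06 (adjusted p = 0.0883), with 9.51, 9.68 and 9.79, against 9.73, 9.78, 9.85 and 9.89. The silica rats lay mostly below the air rats at these 3 times, with 4, 5 and 6 of 8 under the lowest air rat. The average over the 5 times was -0.17 ± 0.03 (adjusted p = 1.68e-06), the smallest p of the 7 genes. A test of equal differences at the 5 times (F-test) did not call Tgfb2 (adjusted p = 0.883). Tgfb2 also drifted down with time in the air rats themselves, by -0.07 ± 0.02 per doubling of weeks (adjusted p = 0.00472). It was the 1 gene of the 7 called for this trend, beside 1.96% of all genes (0.74% upward and 1.22% downward). Of the 7 genes, 5 had an unadjusted p under 0.05 for it, among them Tgfb1 (-0.07, adjusted p = 0.158) and Tgfb3 (-0.09, adjusted p = 0.0588), and the difference of these trends between genes was not tested. The lowest mean of Tgfb2 was in silica at 16 weeks (9.67 ± 0.09, SD) and its highest in air at 1 week (10.08 ± 0.14), and 6 of the 9 neighbouring pairs were closer than the smaller SD.

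Tgfb3, the third isoform, gave the one separation of silica from air. At 16 weeks the silica rats had 5.53, 5.72 and 5.94 (lowest, median and highest), against 6.22, 5.97, 6.07 and 6.25 in the air rats. All 8 silica rats lay below all 4 air rats. The difference was -0.38 ± 0.10 (SE, adjusted p = 0.00302), 0.767 of the air level, and it remained called without any 1 rat. At 1 week the silica rats had 5.85, 6.19 and 6.47, against 6.38, 6.31, 6.55 and 6.65 in air, a difference of -0.27 ± 0.10 (adjusted p = 0.123). At 8 weeks they had 5.85, 6.00 and 6.14, against 6.08, 6.24, 6.27 and 6.37, a difference of -0.23 ± 0.10 (adjusted p = 0.164). At these 2 times 6 of 8 silica rats lay below the lowest air rat. The differences at 2 weeks (-0.18 ± 0.10, adjusted p = 0.291) and at 4 weeks (-0.12 ± 0.10, adjusted p = 0.527) were smaller than the spread of the silica rats, whose SD was 0.20 and 0.21. The average over the 5 times was -0.24 ± 0.04 (adjusted p = 1.97e-05). The group means ran between 5.74 ± 0.14 (SD) in silica at 16 weeks and 6.47 ± 0.16 in air at 1 week, the widest span of the 7 genes, with 6 of 9 neighbouring pairs closer than the smaller SD.

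The markers of smooth muscle moved with Tgfb3. Over the 60 rats, after the group means were taken out, the correlation of Tgfb3 with the mean of 5 tested smooth muscle markers was 0.604, a description over arrays that share their normalization. The marker mean was 8.65 to 9.15 in silica rats at 16 weeks, against 9.07 to 9.33 in air rats, and 2 of the 5 markers, Myh11 and Des, fell. With that mean as a covariate, a setting chosen after seeing the data, the difference of Tgfb3 at 16 weeks was -0.22 (adjusted p = 0.0760). With the heart muscle marker mean as a covariate it was -0.27 (adjusted p = 0.0786). The call was lost in both fits. At 16 weeks the heart muscle mean did not overlap between the groups (5.40 to 9.51 in silica, 9.78 to 10.73 in air). That fit can thus hardly separate it from silica, and a lost call can also come from lower precision. The part of muscle RNA in the Tgfb3 difference was not tested beyond these fits.

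**Figure D2:**
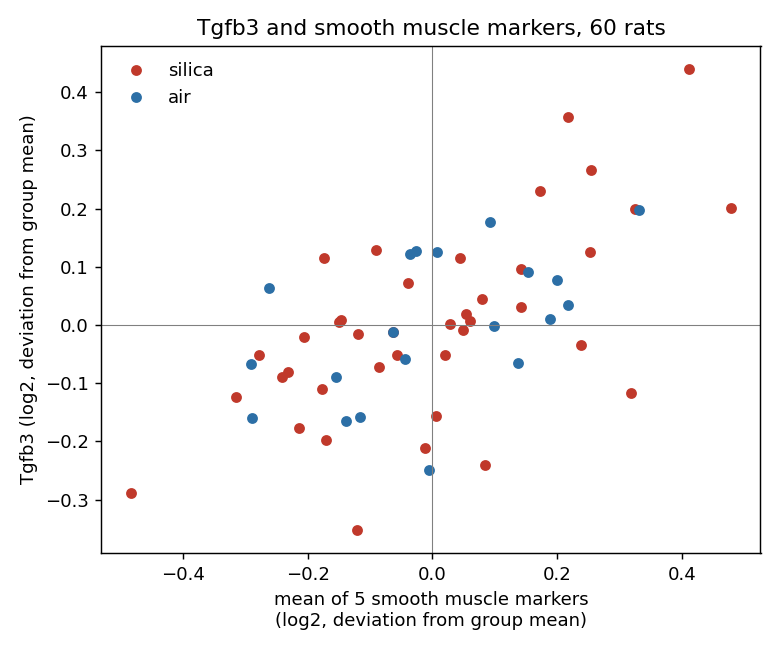
Deviation of Tgfb3 from its group mean (vertical axis, log2) against the deviation of the mean of 5 smooth muscle markers from its group mean (horizontal axis, log2), 1 point per rat, silica red and air blue. The points of both exposures rise together over the 60 rats, with a correlation of 0.604.

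The plot of deviations shows silica and air rats along the same direction. No other of the 7 genes had a correlation of deviations with a marker mean as far from 0. The next were Ccn2 with lung epithelium (-0.431), Tgfb2 with endothelium (0.426) and Pdgfa with macrophages (-0.405). The 4 endothelial markers tested of 6 all fell at 16 weeks, with a mean of 9.36 to 9.58 in silica rats, against 9.78 to 9.94 in air rats. The mean of 5 tested macrophage markers was 7.73 to 8.16 in silica rats at 16 weeks, against 7.53 to 7.79 in air rats. These markers were split, with Cd68, Mrc1 and Msr1 called higher then. Adgre1 (-0.19, adjusted p = 0.401) and Cd163 (-0.21, adjusted p = 0.158) went the other way without a call. The part of the endothelial and macrophage markers in the results for Tgfb2 and Pdgfa was not tested.

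Pdgfa, which encodes the A chain of PDGF, a ligand of PDGF receptor alpha on fibroblasts and their alveolar precursors, was lower by a small and even amount. At 1 week the silica rats had 12.30, 12.38 and 12.44, against 12.34, 12.58, 12.55 and 12.57 in the air rats. At 16 weeks they had 12.01, 12.16 and 12.45, against 12.13, 12.45, 12.34 and 12.51 in the air rats. The groups overlapped at both times, at 1 week through a single air rat that lay among the silica rats. The differences were -0.13, -0.06, -0.14, -0.15 and -0.16 in the order of the 5 times, each with an SE of 0.07, and none was called (adjusted p between 0.101 and 0.706). The average of -0.13 ± 0.03 was (adjusted p = 0.000762), at 0.916 of the air level. The lowest mean was in silica at 8 weeks (12.16 ± 0.10, SD) and the highest in air at 1 week (12.51 ± 0.12), with all 9 neighbouring pairs closer than the smaller SD.

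Tgfbr2, the type II receptor that binds the ligand first, was the gene of the 7 that rose on average. At 16 weeks the silica rats had 6.37, 6.68 and 6.91, against 6.41, 6.36, 6.46 and 6.49 in the air rats. Of the 8 silica rats, 7 lay above the highest air rat and 1 lay among the air rats. The difference was 0.23 ± 0.09 (SE, adjusted p = 0.0570), with a 95% interval of 0.05 to 0.41. At 2 weeks the silica rats had 6.36, 6.62 and 6.83, against 6.51, 6.45, 6.45 and 6.29 in the air rats, a difference of 0.18 ± 0.09 (adjusted p = 0.246). The differences at 1, 4 and 8 weeks were 0.03, 0.08 and 0.17, with adjusted p of 0.932, 0.690 and 0.304. The average over the 5 times was 0.14 ± 0.04 (adjusted p = 0.00588), 1.1 times the air level. With the smooth muscle marker mean as a covariate the average was 0.10 (adjusted p = 0.0529) and no longer called. The highest group mean was in silica at 4 weeks (6.67 ± 0.17, SD) and the lowest in air at 2 weeks (6.42 ± 0.10), and all 9 neighbouring pairs were closer than the smaller SD.

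Smad7, the inhibitory SMAD that the pathway induces against itself, fell at 16 weeks. The silica rats then had 8.10, 8.42 and 8.56 (lowest, median and highest), against 8.75, 8.78, 8.61 and 8.48 in the air rats. The groups overlapped, with 6 of 8 silica rats below the lowest air rat. The difference was -0.26 ± 0.07 (SE, adjusted p = 0.00419), 0.834 of the air level, and it was called without any 1 rat and with either muscle covariate. At 1 week the silica rats had 8.46, 8.58 and 8.78, against 8.77, 8.84, 8.79 and 8.73, and 7 of 8 lay below the lowest air rat. That difference, -0.18 ± 0.07, was not called (adjusted p = 0.168). In between the groups lay together, with differences of 0.00 ± 0.07 at 2 weeks, -0.05 ± 0.07 at 4 weeks and -0.05 ± 0.07 at 8 weeks (adjusted p = 0.992, 0.789 and 0.775). The average over the 5 times was -0.11 ± 0.03 (adjusted p = 0.00572). The mean of Smad7 was 8.40 ± 0.14 (SD) in silica rats at 16 weeks and 8.99 ± 0.10 in silica rats at 2 weeks, and in air rats it was 8.66 ± 0.14 and 8.99 ± 0.21 at those times. Of the 9 neighbouring pairs in its order, 6 were closer than the smaller SD.

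Ccn2 encodes connective tissue growth factor, a matricellular protein and a standard readout of TGF-beta and of YAP and TEAD activity. It was bright, with a mean raw signal of 8911, and fell at 8 weeks. The silica rats then had 12.92, 12.99 and 13.26, against 13.15, 13.52, 13.22 and 13.22 in the air rats. Of the 8 silica rats, 7 lay below the lowest air rat and 1 lay among the air rats. The difference was -0.26 ± 0.09 (SE, adjusted p = 0.0466), 0.835 of the air level. It was lost without any 1 of 12 rats (difference between -0.30 and -0.18 over all rats left out) and with arrays scaled to 1 median (adjusted p = 0.459). At 16 weeks the silica rats had 12.99, 13.09 and 13.17, against 12.999, 13.08, 13.02 and 13.19, and the groups lay over each other, with a difference of 0.02 ± 0.09 (adjusted p = 0.912). At 1, 2 and 4 weeks the differences were -0.05, -0.11 and -0.07, with adjusted p of 0.879, 0.524 and 0.732. At 2 weeks the spread was widest, with 12.72, 12.92 and 13.46 in silica rats, against 13.22, 12.76, 13.05 and 13.33 in air rats. The average was -0.09 ± 0.04 (adjusted p = 0.0587) and not called. Its 95% interval was -0.17 to -0.01, which, like the other intervals here, is not adjusted for the number of genes. The lowest mean was in silica at 2 weeks (12.98 ± 0.24, SD) and the highest in air at 8 weeks (13.28 ± 0.16), with 8 of 9 neighbouring pairs closer than the smaller SD.

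**Figure D3:**
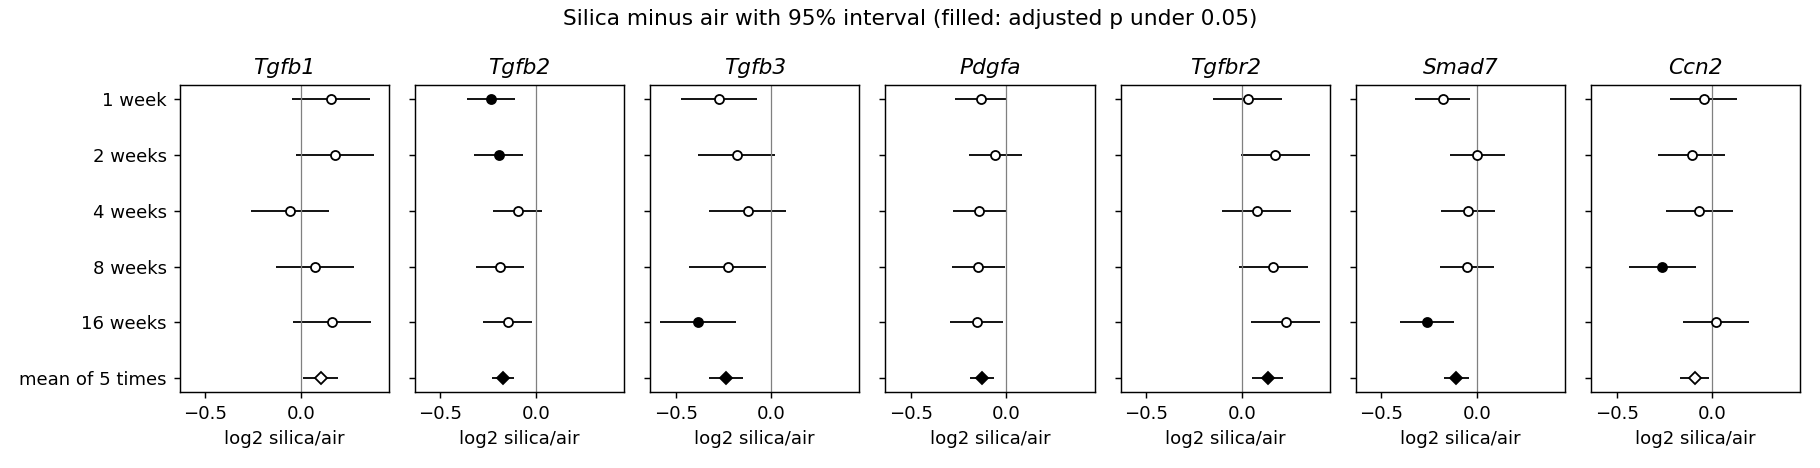
Silica minus air difference on the log2 scale (horizontal axis) with its 95% interval, for each of the 7 detected genes (panels) at each time and averaged over the 5 times (vertical axis). Filled symbols have an adjusted p under 0.05, which holds for Tgfb2 at 1 and 2 weeks, Ccn2 at 8 weeks, Tgfb3 and Smad7 at 16 weeks, and 5 of the 7 averages.

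The plot of differences makes plain that the intervals of each gene at the 5 times overlap widely. The F-test that the 5 differences of a gene are equal called 0 of 7 genes in limma (adjusted p between 0.365 and 0.977, 0 with an unadjusted p under 0.05), where 2.09% of all genes were called. The trend of the difference per doubling of weeks called 0 of 7 (0 unadjusted) beside 1.77% of all genes. The change of the difference between 8 and 16 weeks also called 0 of 7 beside 0.0431% of all genes, and here Smad7 (-0.21 ± 0.10, adjusted p = 0.736) and Ccn2 (0.28 ± 0.12, adjusted p = 0.698) had an unadjusted p under 0.05. No difference between times was thus shown for any of the 7 genes.

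The genes whose signal followed each member most closely were taken over the 60 arrays, as a description over arrays that share their time course and normalization. For Ccn2 they were Fstl3 (r = 0.649, and 0.578 after the group means were taken out), Scap (0.613 and 0.532) and Ccn1 (0.607 and 0.511). Fstl3 encodes a secreted binder of activins and Ccn1 a matricellular protein of the same family as Ccn2. Since these genes moved with Ccn2 from rat to rat, the 250 bases before the start of Ccn2, Ccn1 and Fstl3 (RefSeq, assembly GRCr8) are shown. They are written along the gene, with motif matches on either strand in capitals. The window of Scap was searched as well and is not shown.
Ccn2, chr1:22624615-22624864, minus strand: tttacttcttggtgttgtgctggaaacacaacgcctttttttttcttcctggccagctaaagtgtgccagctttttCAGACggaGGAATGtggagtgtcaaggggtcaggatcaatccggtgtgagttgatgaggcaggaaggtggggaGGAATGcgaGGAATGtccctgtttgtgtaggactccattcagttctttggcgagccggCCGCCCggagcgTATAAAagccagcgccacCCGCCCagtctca
Ccn1, chr2:237225690-237225939, minus strand: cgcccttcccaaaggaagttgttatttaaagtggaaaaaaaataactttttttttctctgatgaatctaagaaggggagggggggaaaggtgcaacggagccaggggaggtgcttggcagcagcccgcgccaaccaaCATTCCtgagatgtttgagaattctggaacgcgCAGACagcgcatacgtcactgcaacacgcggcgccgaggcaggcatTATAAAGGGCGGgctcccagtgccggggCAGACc
Fstl3, chr7:10579845-10580094, minus strand: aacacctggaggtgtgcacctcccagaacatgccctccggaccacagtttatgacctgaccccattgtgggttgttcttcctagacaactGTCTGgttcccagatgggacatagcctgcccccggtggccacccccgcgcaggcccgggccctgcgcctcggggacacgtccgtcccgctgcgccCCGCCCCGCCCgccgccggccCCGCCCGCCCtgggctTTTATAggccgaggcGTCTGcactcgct
The motifs searched were the Smad box CAGAC, the TEAD element GGAATG, the GC box GGGCGG, the TATA box TATAAA, the AP-1 element TGANTCA and the CArG box, on both strands. Capitals that run together mark adjoining or overlapping matches. The Ccn2 window holds 3 TEAD elements, 1 Smad box, 2 GC boxes and a TATA box. The Ccn1 window holds 1 TEAD element, 2 Smad boxes, 1 GC box and a TATA box, and the Fstl3 window 2 Smad boxes, 4 GC boxes and a TATA box but 0 TEAD elements. The Scap window holds 1 Smad box and 1 GC box, with 0 TEAD elements and 0 TATA boxes. Of all 33469 promoter windows of the same length, 12.1% hold the TEAD element, 42.9% the Smad box, 30.5% the GC box and 12.9% the TATA box, so a Smad box is common and a TEAD element or TATA box less so. The AP-1 element (6.34% of windows) and the CArG box (1.5%) are in none of the windows of Ccn2, Ccn1, Fstl3 and Scap. The windows of Tgfb1, Tgfb2 and Tgfb3 hold none of the 6 motifs. Those of Tgfb2 (chr13:100792686-100792935) and Tgfb3 (chr6:111456947-111457196), both on the minus strand, lie inside the annotated genes. The genes end at 100793227 and 111457646, so the bases before their outermost annotated start were not searched.

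Companions of the other genes were as follows. For Tgfb2 they included LOC497727 (0.788, and 0.453 after group means were taken out) and Mprip (0.787 and 0.462), which binds myosin phosphatase. For Tgfb3 they were Arhgef25 (0.805 and 0.484), Scara3 (0.791 and 0.374) and Olfml3 (0.789 and 0.459). For Smad7 they were Tlnrd1 (0.837 and 0.604), the endothelin receptor Ednrb (0.832 and 0.454) and RGD1564930 (0.828 and 0.356). These correlations were smaller once group means were removed. Pdgfa went with Dazap1 (0.776 and 0.569), LOC497673 (0.768 and 0.530) and LOC501120 (0.762 and 0.581). Tgfbr2 had the weakest companions, namely Il1rn (0.605 and 0.458), which encodes the interleukin 1 receptor antagonist, Osbpl8 (0.603 and 0.512) and Mfsd1 (0.598 and 0.523). Il1rn rose in silica rats by 0.90 at 16 weeks (adjusted p = 1.15e-06).

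Among the members themselves the closest pair over the 60 arrays was Tgfb2 and Tgfb3 (r = 0.643), followed by Tgfb2 and Pdgfa (0.597) and by Pdgfa and Smad7 (0.514). After group means were taken out these were 0.162, 0.106 and 0.299. The ligands that fell together over groups thus hardly varied together from rat to rat. The strongest relation left within groups was negative, between Tgfb3 and Ccn2 (-0.366).

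The rest of the pathway was read from 8 lists with 82 genes, of which 75 were on the array and 69 were tested. Silica rats had 2 of them called higher and 1 lower at 1 week, 3 and 5 at 2 weeks, 2 and 3 at 4 weeks, 3 and 6 at 8 weeks, and 5 and 17 at 16 weeks. Of all genes, 2.68% were called higher and 1.14% lower at 1 week, 4.77% and 4.58% at 2 weeks, 2.86% and 3.78% at 4 weeks, 4.76% and 4.15% at 8 weeks, and 10.5% and 12.2% at 16 weeks. The 22 of 69 called at 16 weeks stand beside the 22.7% of all genes, and the 17 lower ones beside 12.2%. The median difference of the 69 genes was -0.07 at 16 weeks and -0.05 over the average of 5 times, beside -0.01 for all genes in both.

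The type I receptor Tgfbr1 was the gene with the steadiest rise. At 16 weeks the silica rats had 6.39, 6.64 and 6.81 (lowest, median and highest), against 6.28, 6.21, 6.05 and 5.93 in the air rats, and the groups did not overlap. They did not overlap at 4 and 8 weeks either, and did overlap at 1 and 2 weeks. Tgfbr1 was named for its small adjusted p, and the share of all genes without overlap was not computed. The differences were 0.32, 0.34, 0.29, 0.30 and 0.48 in the order of the 5 times, each with an SE of 0.09 and each called (adjusted p = 0.0308, 0.00981, 0.0407, 0.0228 and 5.15e-05). The calls at the first 4 times were narrow, being lost without any 1 of 5, 1, 9 and 3 rats, and that at 16 weeks held without any 1 rat. Its partner Tgfbr2 differed by 0.23 at 16 weeks, with the same sign and without a call. Of the 9 receptors tested of 11 listed, Tgfbr1 was the only one called higher at 16 weeks and Acvrl1 (-0.48 ± 0.07, adjusted p = 1.09e-06), the endothelial receptor for BMP9 and BMP10, and Acvr1 (-0.28 ± 0.08, adjusted p = 0.00537), a BMP type I receptor, fell. Tgfbr3, which encodes betaglycan, the co-receptor that presents TGFB2, rose at 2 weeks by 0.44 ± 0.14 (adjusted p = 0.0314). That call was lost without silica replicate 3 or air replicate 3 or 4 (difference between 0.22 and 0.59 over all rats left out), and that of Acvr1 without air replicate 4 (-0.33 to -0.23).

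**Figure D4:**
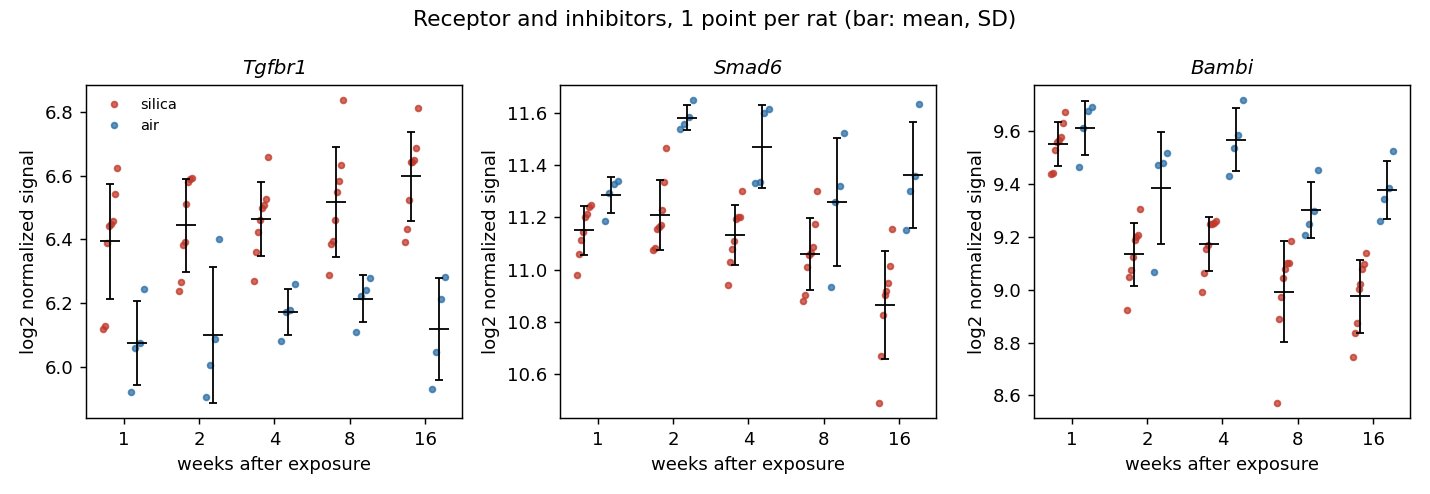
Log2 normalized signal (vertical axis) of Tgfbr1, Smad6 and Bambi by weeks after exposure (horizontal axis), 1 point per rat, silica red and left, air blue and right, with group mean and SD. Tgfbr1 is higher in silica rats at all times, and Smad6 and Bambi have lower means in silica rats at all times.

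Each of the 3 genes in this plot of single rats had a larger difference at 16 weeks than any of the 7 members. Of the inhibitors, Smad6, the SMAD that mainly restrains BMP signals, had 11.08, 11.17 and 11.47 in silica rats at 2 weeks, against 11.56, 11.65, 11.54 and 11.59 in air rats, without overlap. It fell at 2, 4 and 16 weeks, by 0.37, 0.34 and 0.50 on the log2 scale (adjusted p = 0.00481, 0.0145 and 2.76e-05). Bambi, a pseudoreceptor without a kinase, had 8.75, 9.01 and 9.14 in silica rats at 16 weeks, against 9.34, 9.26, 9.39 and 9.52 in air rats, also without overlap. It fell at 2, 4, 8 and 16 weeks, by 0.25, 0.39, 0.31 and 0.40 on the log2 scale (adjusted p = 0.0419, 0.00131, 0.00874 and 0.000142). The call of Smad6 at 4 weeks was lost without air replicate 3 or 4 (-0.39 to -0.29), and those of Bambi without any 1 of 7 rats at 2 weeks (-0.36 to -0.21) and without air replicate 4 at 8 weeks (-0.34 to -0.25). Smad7 was also lower at 16 weeks, when 12.2% of all genes were called lower. Smad6 and Bambi were named for their small adjusted p, and their lack of overlap has no share of all genes beside it. Of the same list, Ski (0.02, adjusted p = 0.828) and Smurf2 (0.09, adjusted p = 0.728) were not called at 16 weeks. Pmepa1, a further target and inhibitor of TGF-beta signals, rose then by 0.23 ± 0.06 (adjusted p = 0.00419). Of the 11 SMAD genes and regulators tested of 14, the calls at 16 weeks were 1 higher and 2 lower, beside 10.5% and 12.2% of all genes.

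Among the target genes, Postn, which encodes the matrix protein periostin, fell by 0.28 at 8 weeks and by 0.47 at 16 weeks on the log2 scale (adjusted p = 0.00149 and 3.78e-08), and Ccn5 fell by 0.24 at 2 weeks and 0.27 at 16 weeks (adjusted p = 0.0435 and 0.00914). Ccn3 rose at 4 weeks by 0.24 (adjusted p = 0.0412). The calls of Ccn5 were lost without any 1 of 8 rats at 2 weeks (-0.29 to -0.17) and without air replicate 3 at 16 weeks (-0.31 to -0.23), and that of Ccn3 without any 1 of 9 rats (0.20 to 0.29). Of 12 targets tested of 14, 1 was called higher and 2 lower at 16 weeks, beside 10.5% and 12.2% of all genes. Ccn2, with a difference of 0.02, was not called then.

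Of the 7 latent complex genes tested of 11, 4 were called lower at 16 weeks and 0 higher, beside 12.2% of all genes called lower. Ltbp1, Ltbp3 and Ltbp4, the binding proteins that anchor latent TGF-beta in the matrix, fell by 0.34, 0.43 and 0.39 on the log2 scale (adjusted p = 2.19e-06, 0.00156 and 9.26e-05), and Lrrc32, the cell-surface anchor GARP, by 0.25 (adjusted p = 0.00461). For Ltbp1 the silica rats had 10.03, 10.15 and 10.20, against 10.41, 10.57, 10.46 and 10.45 in air rats, with no overlap. The share of all genes without overlap was not computed, and these genes were named for small adjusted p. Without air replicate 4 the call of Ltbp3 was lost, at -0.25, and so was that of Lrrc32, at -0.18. Lrrc32 was dim, with means at 16 weeks of 4.71 in silica and 4.96 in air rats, near the low end set by the offset of 16. Ltbp4 had also fallen by 0.23 at 8 weeks (adjusted p = 0.0413), a call lost without any 1 of 8 rats (-0.28 to -0.19). Itgav, the integrin chain alpha V of the receptors that release latent TGF-beta, was not called at any single time and rose by 0.10 on the average of 5 times (adjusted p = 0.0309), a call lost without any 1 of 4 rats (0.09 to 0.12).

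**Figure D5:**
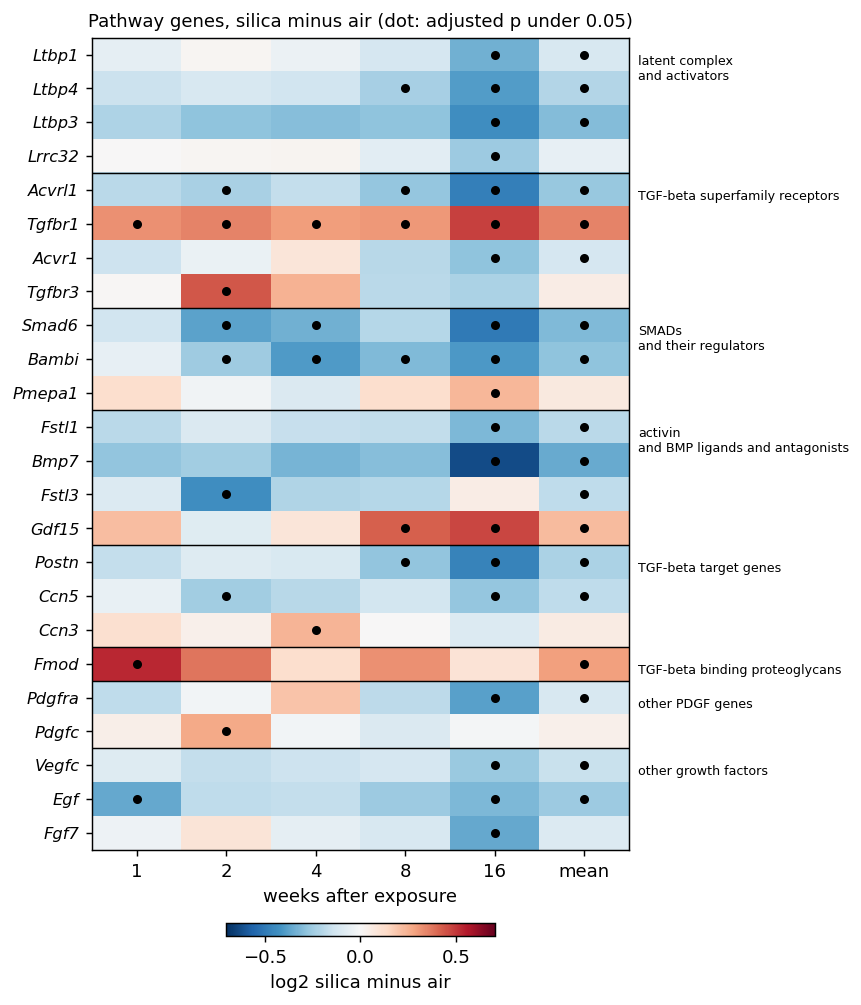
Silica minus air difference on the log2 scale (colour, red higher and blue lower in silica) of 24 named pathway genes (vertical axis, by list) at each time and averaged over the 5 times (horizontal axis, weeks). Dots mark an adjusted p under 0.05, and the 16 week column holds more of them than any other single time, with Tgfbr1 at 0.48 and Bmp7 at -0.63 at its ends.

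The map of differences also holds genes of the remaining lists, with 22.7% of all genes called at 16 weeks. Among 14 activin and BMP genes tested of 14, 2 were higher and 3 lower at 16 weeks. Bmp7, a BMP ligand that opposes TGF-beta in epithelium, fell by 0.63 on the log2 scale (adjusted p = 9.49e-05) and Fstl1 by 0.31 (adjusted p = 5.25e-05), and Gdf15, a stress-induced ligand of the family, rose by 0.42 at 8 weeks and 0.47 at 16 weeks (adjusted p = 0.00493 and 0.000480). Fstl3, the companion of Ccn2, fell by 0.43 at 2 weeks (adjusted p = 0.000428). Among the proteoglycans, Fmod, a collagen-binding proteoglycan that also binds TGF-beta, rose by 0.53 ± 0.13 at 1 week (adjusted p = 0.00820). Of the other PDGF genes, Pdgfra, the receptor of the Pdgfa product, fell by 0.38 at 16 weeks (adjusted p = 0.00159), and Pdgfc rose by 0.26 at 2 weeks (adjusted p = 0.0426). Of 10 other growth factors tested of 11, 3 fell at 16 weeks, namely Fgf7 by 0.36 (adjusted p = 0.0257), Egf by 0.31 (adjusted p = 0.010) and Vegfc by 0.26 (adjusted p = 0.00186), and Egf had also fallen by 0.36 at 1 week (adjusted p = 0.0147). The call of Fgf7 was lost without air replicate 1 or 2 (-0.46 to -0.23), those of Egf without air replicate 2 at 16 weeks (-0.36 to -0.27) and without air replicate 2 or 3 at 1 week (-0.40 to -0.32), and that of Pdgfc without any 1 of 8 rats (0.18 to 0.31).

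Markers of several cell types moved at 16 weeks beside these genes. The mean of 5 neutrophil markers was 7.18 to 7.92 in silica rats, against 6.64 to 6.71 in air rats, and 4 of the 5 rose. The mean of 7 fibroblast markers was 9.37 to 9.52, against 9.58 to 9.69, and 2 of the 7, Lum and Pdgfra, fell, while Col1a1 (-0.13, adjusted p = 0.421) and Col3a1 (-0.08, adjusted p = 0.504) were not called. All 4 tested heart muscle markers fell, Myh6 by 5.17 on the log2 scale. With the heart muscle mean as a covariate the differences at 16 weeks were 0.43 for Tgfbr1, -0.48 for Postn, -0.35 for Ltbp1 and -0.50 for Bmp7, each still called, and with the smooth muscle mean they were 0.43, -0.49, -0.33 and -0.46, each still called. The part of the neutrophil, fibroblast and endothelial markers in the pathway results was not tested.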

How the data were processed

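Lung RNA of 60 rats was measured on 1 Illumina array each, and the labels gave group and replicate, each number naming a different rat. Per the file headers the deposited table gives for each gene an average intensity and a detection p-value. The authors also deposited processed values, which by their range are log2, with a scaling not stated, and these were tried as a variant. The submitters' processing notes name BeadStudio, lumi and limma (versions: not given in these sources). The displaced column was realigned, which brought its correlation with the median array to 0.998, against 0.232 as deposited. Background was corrected with normexp, with 825 negative controls, a number inferred from the spacing of detection p-values, and an offset of 16, then quantile normalization and log2. Genes with a detection p under 0.05 on 4 or more arrays were kept, with the brightest line per symbol, leaving 13918. Gene names came from RefSeq (GRCr8), 16866 by gene identifier, 23 by accession, 4786 by file symbol and 117 left without a name.

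One fit in limma 3.58.1 (R 4.3.3) held 10 group means with 50 residual degrees of freedom, and p-values were adjusted by Benjamini-Hochberg over the 13918 genes. The number of arrays limits the precision. The scripts were tested on simulated data. The members and gene lists were chosen with earlier results of these data known. Named pathway genes are, per list, up to 4 called at any time with the smallest adjusted p, and companions are the 3 genes with the highest correlation for each member called. One pathway gene and 1 companion that these rules name are not reported here, and counts over the lists include that pathway gene. Tgfbr1, Smad6 and Bambi were picked for display of single rats after their values were seen. Alternatives were other background corrections, scalings, filters, array weights, the authors' values, times fitted alone, a replicate block, each rat left out, and 2 marker covariates. Replicate numbers did not pair the samples: over 20 pairs the correlations of deviations ran between -0.35 and 0.394, and 5 were over 0.1. Promoter windows came from RefSeq (GRCr8). Probe sequences and the slide of each array were not used here.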

Additional observations from a re-analysis of the deposited data

Results flagged for a closer look

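In Tgfb1, silica replicate 8 at 8 weeks stood far above the other 7 rats, at 9.73 against 9.42 for the next (gap over range 0.606). In Pdgfa, air replicate 1 at 1 week was far below the other 3, at 12.34 against 12.55 (0.864), and in Bambi, air replicate 2 at 2 weeks, at 9.07 against 9.47 (0.904). These were 3 of 100 groups examined, and chance gives about 1 in 20.

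The silica effect differed between times, by a test of the difference itself, in 3 of 31 genes examined. All 3 were among the 24 named pathway genes, and none was among the 7 detected members. The 24 had been picked for small adjusted p-values at single times in the same data. That choice favours genes with a large difference at a particular time, so the count cannot be compared with that of the members. Of all genes tested, the trend called 1.77% and the F-test 2.09%. For Postn the silica effect changed by -0.0798 ± 0.02 per doubling of weeks (adjusted p = 0.0181). The F-test of Postn among the 5 times gave 6.405 (adjusted p = 0.0226). For Ltbp1 the trend was -0.0679 ± 0.02 (adjusted p = 0.0214) and F was 6.412 (adjusted p = 0.0226), and for Pdgfra F was 5.378 (adjusted p = 0.0493).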

How the results depend on the processing

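Calls of the members were 1, 1, 0, 1 and 2 at the 5 times in order, and 5 on the average of the 5 times. Over 651 member values recomputed under other settings, 28 changed their call and 0 called values changed sign. The count at 1 week was 0 with median scaling and with each time fitted alone. At 2 weeks it was 0 with median scaling, each time alone, array weights, the replicate block and the heart muscle covariate. At 8 weeks it was 0 with median scaling, each time alone, no detection filter and the replicate block. It was 2 (Ccn2 and Tgfb2) with the authors' values, detection on at least 30 arrays, no background correction, normexp without negative controls and the heart muscle covariate. At 16 weeks it was 1 with the smooth muscle covariate. On the average of 5 times Ccn2 was called lower with median scaling (adjusted p = 0.022), the authors' values (0.0331) and array weights (0.0244). It was also called lower with the heart (0.0458) and smooth muscle (0.0177) covariates. Tgfb1 was called higher on that average under cyclic loess (0.0447). Leaving out any 1 of 7 rats gained the call of Ccn2, and any 1 of 6 that of Tgfb1. The trend in air rats called 1 member, 0 with median scaling and 2 with the authors' values, the replicate block and the heart muscle covariate. Both covariates were chosen after seeing the data. With each rat left out the members' counts ran 0 to 1 at 1 and 2 weeks, 0 to 2 at 8 weeks, and 1 to 2 for the trend in air. On the average of 5 times they ran 5 to 7.

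Pathway calls were 3, 8, 5, 9 and 22 at the 5 times. At 1 week they were 0 with median scaling. At 2 weeks they were 5 with median scaling, 4 with no filter, 3 with array weights and 1 with each time alone. At 4 weeks they were 3 with no filter, each time alone and the replicate block, and 8 with the smooth muscle covariate. At 8 weeks they were 1 with median scaling and 4 with each time alone. Without 1 rat they ran 1 to 4 at 1 week, 2 to 13 at 2 weeks, 1 to 11 at 4 weeks and 4 to 11 at 8 weeks. Of 903 pathway calls compared, 89 were lost and 0 reversed. The cause of these changes was not tested. In the replicate block, whose numbers name different animals, Tgfb2 at 2 weeks (adjusted p = 0.0848) and Ccn2 at 8 weeks (0.101) lost their calls and Tgfbr2 at 16 weeks (0.26, adjusted p = 0.0459) gained one.

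Sign changes were confined to values called in neither fit. Smad7 at 2 weeks was -0.11 with median scaling, -0.0209 with array weights, -0.0031 in the authors' values and -0.0028 with the heart covariate. Ccn2 at 16 weeks was -0.0123 with median scaling, -0.0197 with the heart and -0.0440 with the smooth muscle covariate. The trend of Ccn2 was 0.0174 with median scaling, 0.0066 under cyclic loess, 0.0029 in the authors' values and 0.0019 with array weights. The change of Tgfb2 between 8 and 16 weeks was -0.0258 with median scaling. That of Pdgfa was 0.0208 with array weights, 0.0004 under cyclic loess, 0.0131 with the heart and 0.0035 with the smooth muscle covariate. Tgfbr2 at 1 week was -0.0208 with the smooth muscle covariate. With each rat left out, the ranges that crossed 0 were -0.0849 to 0.0015 for Tgfb1 at 4 weeks, -0.0330 to 0.0072 for its trend and -0.0300 to 0.1714 for its change between 8 and 16 weeks. They were -0.0970 to 0.0133 for Pdgfa at 2 weeks and -0.0852 to 0.0422 for its change between 8 and 16 weeks, -0.0293 to 0.1049 for Tgfbr2 at 1 week, and -0.0792 to 0.0702 and -0.1102 to 0.0061 for Smad7 at 2 and 8 weeks. For Ccn2 they were -0.0725 to 0.0041 at 1 week, -0.0034 to 0.0598 at 16 weeks and -0.0121 to 0.0089 for its trend.

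Median scaling also moved the split of all genes called. On the average of 5 times it called 1172 of 4440 higher, against 2029 of 4893, and at 2 weeks 145 of 582, against 664 of 1301. At 4 weeks it was 105 of 419, against 398 of 924, and at 8 weeks 264 of 367, against 663 of 1241. The slide as a block was not run, since no slide was given in the headers or labels used. Dim signals limited Inhba and Pdgfb, which were below detection.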
